A study of Mus musculus with 12 samples.

Results

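Macrophages that had already been exposed to lipopolysaccharide (LPS) were compared with macrophages of the same pretreatment that then met LPS again. The comparison took the 6 arrays of 2 groups out of the 12 arrays and 4 groups of the series, matched by the replicate letters A, B and C of the labels, and 18193 genes were tested. All cells were bone marrow cells of C57Bl/6 mice, a common inbred strain, differentiated in macrophage colony-stimulating factor (M-CSF). Both groups had received 100 ng/ml LPS for 18 h, new medium and 2 h of rest. The pretreated group was then left without LPS, and the restimulated group was given 100 ng/ml LPS a second time. The untreated and the LPS-once groups, which went through the same steps without the pretreatment, served as reference for a first response and as part of the same fit. The sources used here do not give the length of the last stimulation. The labels call the letters biological replicates. They do not say whether a letter was 1 mouse or a pool. The p-values and the standard errors (SE) rest on 1 spread per gene, pooled over the 3 samples of all 4 groups. They do not measure the spread of the 2 compared groups alone.

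LPS, the glycolipid that coats Gram-negative bacteria, is bound by Cd14 and by the receptor complex of Tlr4 and Md-2. The complex signals through the adaptor Myd88 to NF-κB and the MAP kinases, and through the adaptor Trif to interferon-inducing factors. Macrophages that have answered LPS once are known to answer a second dose with less inflammatory cytokine, a state called LPS or endotoxin tolerance, in which inhibitors of these pathways and changes at chromatin are known to take part.

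The values are linear microarray intensities of probe sets and are given here in intensity units. Changes are differences of log2(intensity + 16) between the restimulated and the pretreated group, a scale on which the change of dim genes comes out too small. A gene was called higher or lower where its Benjamini-Hochberg adjusted p in limma was under 0.05 over all genes tested and its change was at least 2-fold. The median change over all genes was -0.0164. The restimulated C array was dim, with a mean intensity of 246.7 units against 310 to 317 on the other 11 arrays. Over 6228 genes of mid-range intensity the median difference between restimulated and pretreated array was -0.106 in letter A, -0.0613 in letter B and -0.632 in letter C, and 87.9% of these genes were lower in letter C. Probe sets for control transcripts above the dim range differed by -0.177, -0.00967 and -0.496 in the same order. Changes of named genes and list medians are therefore also given without this array.

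The cells carried the markers of macrophages in both groups. All 19 macrophage identity genes lay above 50 units on at least 1 of the 6 arrays, and their summed intensity ran from 119149 to 126183 units before and from 113234 to 133172 units after the second LPS. Csf1r, the receptor of M-CSF, had 11838, 11400 and 12296 units in pretreated A, B and C and 11502, 11647 and 11248 in restimulated A, B and C. Markers of T and NK cells were dim, with 8 of 11 under 50 units on all 6 arrays, as were all 10 markers of mast cells, basophils and eosinophils. Of 11 neutrophil and precursor markers 6 were under 50 units on all 6 arrays, among them Elane, Mpo and Cxcr2. The sums ran from 2775 to 7752 units before and from 2606 to 6787 after. The brightest member was S100a8, with a mean of 2979 units. Stromal markers were lowest in letter C. Their sum was 8675, 7569 and 800 units in pretreated A, B and C and 4706, 7855 and 720 units in restimulated A, B and C. No member of a marker list of another cell type was called, and the part of these cells in the results was not tested. In such bulk samples, fewer cells of a type and less RNA per cell cannot be told apart.

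The second LPS still changed gene expression in pretreated cells. It raised 141 genes, 0.775% of those tested, and lowered 270 genes, 1.48%. The 15 largest increases were, from the largest down, Ccl3, Cxcl2, Il6, Cxcl1, Tnf, Ets2, Itgb8, Nfkbie, Socs3, Ccl4, Ptgs2, Zc3h12c, Il1a, Cd69 and Gpr84. The 15 largest decreases were Rgs2, Arrdc3, Cxcr4, Rnf144b, Rassf3, Mtus1, Cnr2, Gcnt1, Tsc22d3, Arhgap19, Gpr155, Bmf, Tmem140, Cd28 and Gpr183 in the same order. All 3 letters changed in the same direction in each of the 411 called genes. A call in a fit with the letter as block favours such agreement, and its share over all genes is not given here. The 3 restimulated arrays lay above all pretreated arrays for 137 of the 141 genes and below all of them for 259 of the 270. Over all genes such separation occurred upward for 1454 genes, 7.99%, and downward for 2748 genes, 15.1%.

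Without restimulated C, 91 genes were higher (0.5%) and 84 were lower (0.462%), and 81 and 82 of these, in that order, were also called with it. The higher genes made up 34.3% of the calls with this array and 52.0% without it. They made up 48.6% after quantile normalization (198 higher, 209 lower), 46.6% after rescaling of that array (207 higher, 237 lower) and 42.8% with array weights (218 higher, 291 lower). The calls also rested on other single arrays. Of the 141 higher genes 28 held without any 1 of the 12 arrays, and of the 270 lower genes 7 did. Without pretreated C the numbers were 32 higher and 8 lower, without restimulated A 50 and 18, and without pretreated A 54 and 25. Leaving out pretreated B gave 171 higher and 449 lower genes, and leaving out restimulated B 161 and 554. For the named genes given with a change, each array whose omission on its own ended a call stands in parentheses after the gene.

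**Figure D1:**
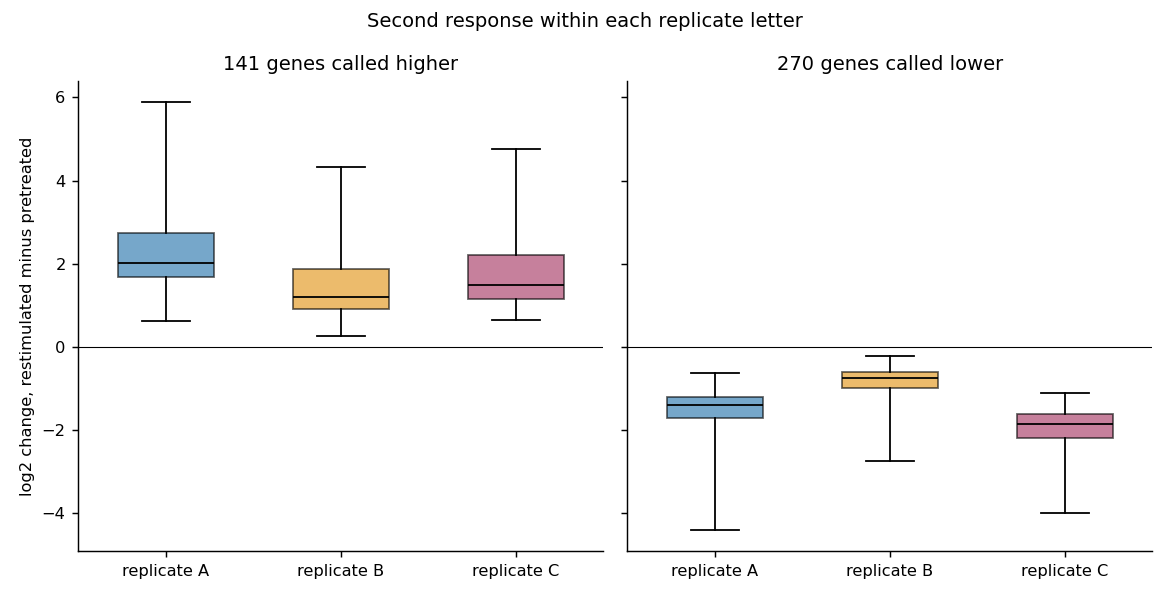
Change on the second LPS within each replicate letter, as log2(intensity + 16) of the restimulated minus the pretreated array, for the genes called higher (left) and lower (right). Boxes span the quartiles with a line at the median and whiskers reach the extremes. Among higher genes the medians were 2.02 in A, 1.2 in B and 1.5 in C, and among lower genes -1.4, -0.737 and -1.85.

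The letters did not respond by the same amount, as the box plot of changes by letter shows. Letter A had the largest change of the 3 letters for 109 of the 141 higher genes. Letter C, which holds the dim array, had the largest change for 225 of the 270 lower genes, and letter B for 0 of them. Letter B had the smallest change for 101 of the higher and 250 of the lower genes. These are descriptions of the called genes, chosen for their change, and carry no test.

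The CC chemokines Ccl3 and Ccl4, which draw monocytes and T cells, rose. Ccl3 had 159.9, 381.9 and 185.4 units in pretreated A, B and C and 3667, 5416 and 4993 in restimulated A, B and C. It rose in every letter, by a log2 change of 4.27 ± 0.25 (SE, 3 arrays per group, limma adjusted p = 0.00152), and by 4.23 (adjusted p = 0.00653) without restimulated C. Ccl4 measured 147.2, 191.3 and 160 units in pretreated A, B and C and 2430, 1843 and 1751 in restimulated A, B and C. Both groups were tight and far apart, with a log2 change of 3.47 ± 0.17 (SE, 3 arrays per group, limma adjusted p = 0.000776) and 3.61 (adjusted p = 0.00345) without restimulated C. Of 13 CC chemokines measured these were the 2 called, with a list median of 0.15 (0.28 without restimulated C) against -0.0164 for all genes. Ccl5, another T cell attractant, was already bright before the second LPS, with 11494, 11218 and 10339 units in pretreated A, B and C and 11274, 11216 and 9134 in restimulated A, B and C. Its groups overlapped, and its change was -0.07 ± 0.15 (SE, 3 arrays per group, limma adjusted p = 0.831). With restimulated C left out, the change was 0.07 (adjusted p = 0.9) for Ccl5. Ccl3 and Ccl4 kept their calls whichever of the 12 arrays was left out.

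The CXC chemokines Cxcl1 and Cxcl2 attract neutrophils through Cxcr2, and Cxcl10 attracts T cells through Cxcr3. Cxcl2 had 47.97, 1333 and 390.9 units in pretreated A, B and C and 3764, 7940 and 5438 in restimulated A, B and C. Pretreated A was far lower than the other pretreated arrays, and the change was 4.06 ± 0.83 (SE, 3 arrays per group, limma adjusted p = 0.0368). Cxcl1 had 25.25, 362 and 93.79 units in pretreated A, B and C and 653.7, 5420 and 1817 in restimulated A, B and C. Letter B was the highest and letter A the lowest in both groups, and the change was 3.98 ± 0.67 (SE, 3 arrays per group, limma adjusted p = 0.0228). Within letters A, B and C the changes of Cxcl1 were 4.02, 3.85 and 4.06. Cxcl10 had 282.6, 813.3 and 284.9 units in pretreated A, B and C and 4648, 2460 and 1410 in restimulated A, B and C, with restimulated A above the others and a change of 2.60 ± 0.47 (SE, 3 arrays per group, limma adjusted p = 0.0262). These were the 3 members called of 14 measured, with a list median of 0.20 (0.38 without restimulated C). Without restimulated C, 0 of the 14 were called. The changes were then 4.05 (adjusted p = 0.1) for Cxcl2, 4.00 (adjusted p = 0.0649) for Cxcl1 and 2.86 (adjusted p = 0.0546) for Cxcl10. The omission of 1 array ended the call of Cxcl1 (pretreated A or C or restimulated A or C), Cxcl2 (any other than pretreated B, restimulated B or untreated A) and Cxcl10 (untreated B or C, pretreated A or C or restimulated A or C), where the adjusted p reached 0.151.

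**Figure D2:**
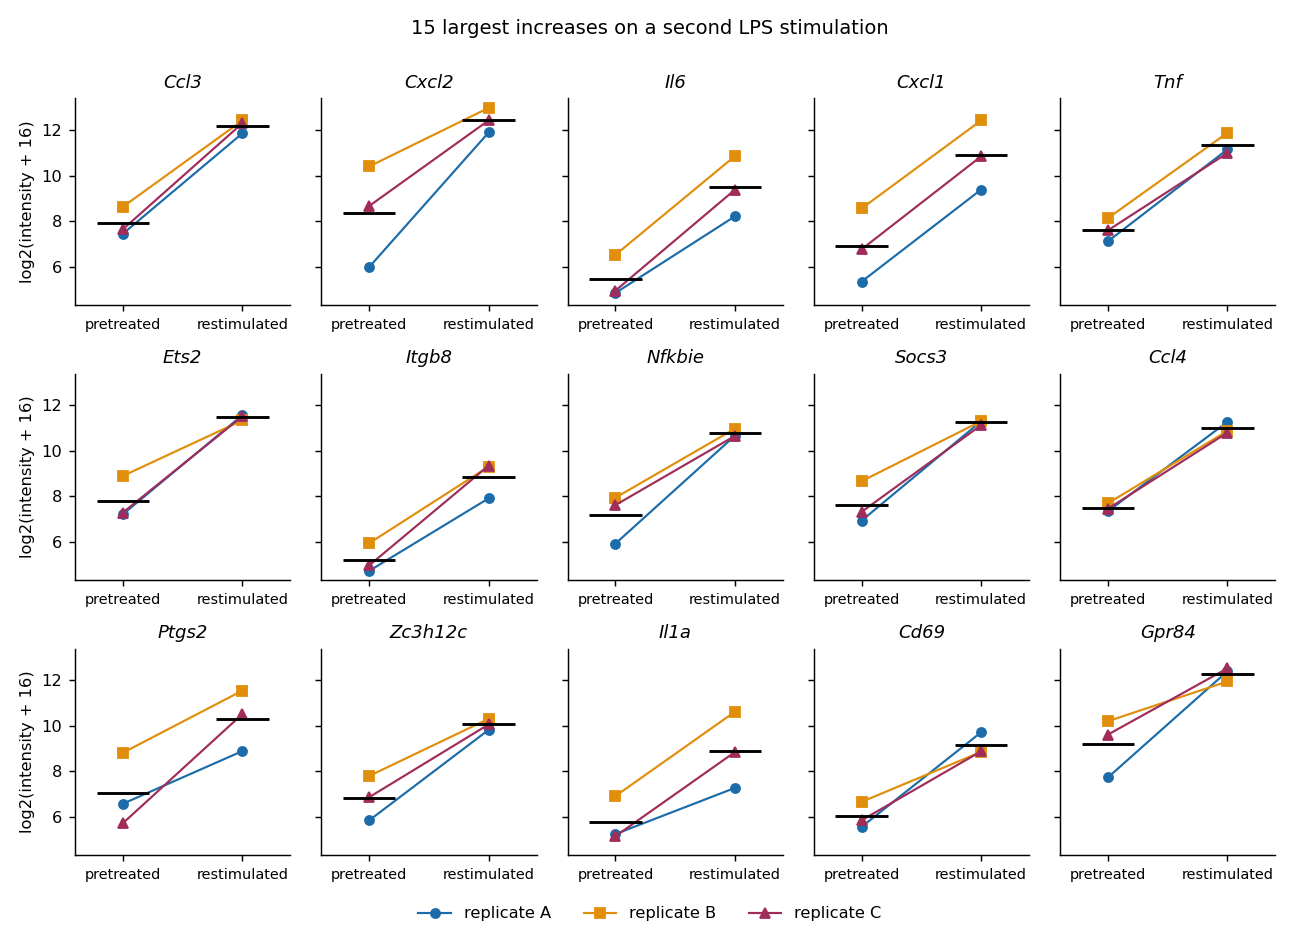
Each panel is 1 of the 15 genes with the largest increases, with log2(intensity + 16) on the vertical axis for the pretreated and the restimulated array of each replicate letter, joined by a line; black bars are group means (n = 3). All lines rise, from a mean of 7.92 to 12.18 for Ccl3, which was a condition of the choice of these genes. The restimulated arrays lie above the pretreated arrays in every panel. Letter B starts highest in most panels.

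Cytokines with strong second responses were Tnf, Il6, Il1a and Tnfsf9, 4 of 25 measured, with a list median of 0.19 (0.28 without restimulated C). Tnf, the cytokine that sets off fever, endothelial activation and further NF-κB signalling, had 123.5, 265.4 and 178.4 units in pretreated A, B and C and 2241, 3719 and 2010 in restimulated A, B and C. The groups were well apart and the change was 3.71 ± 0.25 (SE, 3 arrays per group, limma adjusted p = 0.00204), or 3.95 (adjusted p = 0.00495) without restimulated C. Il6, a cytokine of the acute phase, had 13.22, 76.64 and 15.33 units in pretreated A, B and C and 281.8, 1830 and 650.4 in restimulated A, B and C. Letter B was the brightest in both groups, and pretreated A and C were close to the lowest intensities of the arrays. The change was 4.03 ± 0.48 (SE, 3 arrays per group, limma adjusted p = 0.0087), or 4.06 (adjusted p = 0.0264) without restimulated C. Il1a, an alarm cytokine that acts through the interleukin 1 receptor, had 22.46, 105.5 and 20 units in pretreated A, B and C and 139.5, 1548 and 445.5 in restimulated A, B and C, with a change of 3.13 ± 0.58 (SE, 3 arrays per group, limma adjusted p = 0.0294) and 3.12 (adjusted p = 0.0824) without restimulated C. Tnfsf9, the ligand of the costimulatory receptor 4-1BB, changed by 2.42 ± 0.33 (SE, 3 arrays per group, limma adjusted p = 0.0131). The change without restimulated C was 2.43 (adjusted p = 0.0375) for Tnfsf9. Tnf kept the call whichever of the 12 arrays was left out, and a fit with 1 array less ended the call of Il6 (pretreated C), Il1a (untreated C, LPS-once C, pretreated A or C or restimulated C) and Tnfsf9 (pretreated A or C or restimulated A), at an adjusted p of up to 0.157.

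Other cytokines did not pass. Il1b, the inflammasome-processed sister of Il1a, had 436.5, 4820 and 2938 units in pretreated A, B and C and 9085, 11977 and 11273 in restimulated A, B and C. Pretreated A was the only array under 1000 units, and the change of 2.52 ± 0.68 (SE, 3 arrays per group, limma adjusted p = 0.0745) missed the threshold. Il10, the main anti-inflammatory cytokine of macrophages, had 45.21, 19.82 and 33.66 units in pretreated A, B and C and 40.48, 24.28 and 20.91 in restimulated A, B and C. The groups overlapped at a dim level, with a change of -0.12 ± 0.17 (adjusted p = 0.705), whereas the first response of Il10 was 5.27. Il12b, the subunit shared by interleukins 12 and 23, likewise stayed dim, with 12.07, 18.53 and 11.12 units in pretreated A, B and C and 15.52, 31.47 and 10.67 in restimulated A, B and C and a change of 0.20 ± 0.34 (adjusted p = 0.768) after a first response of 5.49. The difference between both responses was -5.40 ± 0.24 (adjusted p = 6.79e-05) for Il10 and -5.29 ± 0.48 (adjusted p = 0.00194) for Il12b in limma. In the fit without restimulated C, the changes were 2.46 (adjusted p = 0.185) for Il1b, -0.02 (adjusted p = 0.976) for Il10 and 0.49 (adjusted p = 0.561) for Il12b.

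Of the 15 largest increases 13 had a promoter in the RefSeq table, and 4 of these, Cxcl2, Il6, Cxcl1 and Gpr84, held letters like a binding site of NF-κB in the 150 bases before the annotated start. They are shown for that match, which the other 9, Ccl3, Tnf, Ets2, Itgb8, Nfkbie, Socs3, Ptgs2, Zc3h12c and Il1a, lacked in this window. Sequences are from RefSeq, build GRCm38.p6, and are printed 5′ to 3′ along the gene. Capitals mark GGGANNTTC on either strand, and a run of 11 capitals is an overlapping match on both strands. The windows are chr5:90903749-90903898, plus strand for Cxcl2, chr5:30012964-30013113, plus strand for Il6, chr5:90891095-90891244, plus strand for Cxcl1 and chr15:103310439-103310588, minus strand for Gpr84.
Cxcl2: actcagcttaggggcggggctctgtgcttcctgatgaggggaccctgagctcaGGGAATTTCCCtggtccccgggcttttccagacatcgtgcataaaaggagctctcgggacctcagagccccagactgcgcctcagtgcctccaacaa
Il6: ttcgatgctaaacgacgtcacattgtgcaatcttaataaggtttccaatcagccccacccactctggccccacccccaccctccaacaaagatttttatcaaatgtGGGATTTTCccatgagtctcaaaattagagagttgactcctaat
Cxcl1: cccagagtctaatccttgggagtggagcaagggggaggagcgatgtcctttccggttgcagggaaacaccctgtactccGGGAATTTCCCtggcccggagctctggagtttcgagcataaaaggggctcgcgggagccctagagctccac
Gpr84: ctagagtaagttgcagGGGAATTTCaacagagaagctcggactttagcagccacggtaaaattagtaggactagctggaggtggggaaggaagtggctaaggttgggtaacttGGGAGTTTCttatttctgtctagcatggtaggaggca
The match began at position -97 in Cxcl2, -71 in Cxcl1 and -44 in Il6, counted from the start, and Gpr84 had matches at -134 and -37. In Tnf a match lay at 4 bases after the start. In a 300-base window around the start, the letters occurred in 14 of the 121 higher genes with a promoter in the table (11.6%), in 12 of 221 lower genes (5.43%), in 633 of 14452 genes tested (4.38%) and in 1295 of all 32851 promoters (3.94%). The AP-1 letters TGANTCA occurred in 9.09% of higher genes, 5.88% of lower genes, 7.54% of genes tested and 7.81% of all promoters. In the same order, the cyclic AMP response element letters TGACGTCA occurred in 5.79%, 1.36%, 2.92% and 1.79%. The interferon response element-like letters GAAANNGAA occurred in 9.09%, 4.98%, 8.7% and 8.56%. A match describes these letters alone.

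Mir155hg, the host transcript of miR-155, a microRNA known to be induced by LPS in macrophages, is added here after its values were seen. It had 10.73, 21.35 and 12.05 units in pretreated A, B and C and 92.29, 244.6 and 55.41 in restimulated A, B and C. The change was 2.06 ± 0.34 (SE, 3 arrays per group, limma adjusted p = 0.0226), or 2.49 (adjusted p = 0.0147) without restimulated C, after a first response of 5.20. With 1 array left out, the call was lost for Mir155hg (pretreated A or C or restimulated A), with adjusted p up to 0.111. The array measures this host transcript and not the microRNA, whose mature 5p strand lies at chr16:84714143-84714165 (GRCm38.p6, plus strand) and is shown with its seed, bases 2 to 8, in capitals.
mmu-miR-155-5p: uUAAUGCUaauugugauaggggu

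Of the IκB family of NF-κB inhibitors, Nfkbie (IκBε), which holds NF-κB in the cytoplasm, had 45.17, 230.1 and 180.7 units in pretreated A, B and C and 1594, 1978 and 1585 in restimulated A, B and C. Pretreated A was the lowest array and the restimulated arrays were close together, with a change of 3.59 ± 0.39 (SE, 3 arrays per group, limma adjusted p = 0.00804) and 3.70 (adjusted p = 0.0225) without restimulated C. Nfkbiz, the nuclear IκBζ needed for secondary response genes such as Il6, had 343.9, 680.4 and 735.1 units in pretreated A, B and C and 3350, 2778 and 3156 in restimulated A, B and C. The groups were far apart, with a change of 2.44 ± 0.23 (SE, 3 arrays per group, limma adjusted p = 0.00477) and 2.55 (adjusted p = 0.0147) without restimulated C. Nfkbib rose by 1.11 ± 0.17 (adjusted p = 0.0194), which made 3 of 6 IκB family genes, with a list median of 0.99 (1.09 without restimulated C). Nfkbia, the classical feedback inhibitor IκBα, had 3897, 5462 and 5479 units in pretreated A, B and C and 9127, 8860 and 8727 in restimulated A, B and C. Its groups did not overlap, and its change of 0.86 ± 0.11 (adjusted p = 0.0124) was under 2-fold. The fit without restimulated C gave 1.27 (adjusted p = 0.0243) for Nfkbib and 0.91 (adjusted p = 0.0269) for Nfkbia. Nfkbie and Nfkbiz kept their calls whichever of the 12 arrays was left out, and leaving out 1 array ended the call of Nfkbib (pretreated A or C or restimulated A), with adjusted p up to 0.111.

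The NF-κB subunits Nfkb2 and Relb, partners of the slower non-canonical pathway, were the 2 called of 4 measured, with a list median of 1.21 (1.36 without restimulated C). Nfkb2 had 279.6, 628.9 and 542.7 units in pretreated A, B and C and 1831, 1465 and 1818 in restimulated A, B and C, and changed by 1.85 ± 0.24 (SE, 3 arrays per group, limma adjusted p = 0.0122). Relb had 153.1, 465.2 and 426.4 units in pretreated A, B and C and 1057, 1009 and 1039 in restimulated A, B and C, nearly the same on the 3 restimulated arrays, and changed by 1.67 ± 0.30 (SE, 3 arrays per group, limma adjusted p = 0.0259). Leaving out restimulated C gave 1.84 (adjusted p = 0.0351) for Nfkb2 and 1.74 (adjusted p = 0.0664) for Relb. The omission of 1 array ended the call of Nfkb2 (pretreated C or restimulated A) and Relb (untreated B, pretreated C or restimulated A or C), where the adjusted p reached 0.0933.

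Brakes at the level of ubiquitin and the receptor complex were called for 3 of 19 members, with a list median of 0.01 (0.20 without restimulated C). Tnfaip3 (A20), a ubiquitin-editing enzyme that ends NF-κB signalling, had 138.7, 583.8 and 341.9 units in pretreated A, B and C and 2332, 3383 and 2414 in restimulated A, B and C. It changed by 3.06 ± 0.39 (SE, 3 arrays per group, limma adjusted p = 0.0112). Its binding partner Tnip1 changed by 1.52 ± 0.17 (adjusted p = 0.00804), and Irak3 (IRAK-M), a kinase homologue known to restrain Myd88 signalling in tolerant cells, by 1.25 ± 0.23 (adjusted p = 0.0267). Irak3 had 1157, 2238 and 1927 units in pretreated A, B and C and 4792, 3528 and 4035 in restimulated A, B and C, so that all pretreated arrays already lay above 1000 units. Without restimulated C the changes were 3.16 (adjusted p = 0.0296) for Tnfaip3, 1.48 (adjusted p = 0.0255) for Tnip1 and 1.25 (adjusted p = 0.0756) for Irak3. A fit with 1 array less ended the call of Tnfaip3 (pretreated C or restimulated A), Tnip1 (pretreated C) and Irak3 (untreated A or B, LPS-once C, pretreated A or C or restimulated A or C), at an adjusted p of up to 0.101.

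Feedback inhibitors of other pathways rose as well. Socs3, which blocks signalling of the Il6 receptor, had 107, 389.7 and 144.5 units in pretreated A, B and C and 2477, 2486 and 2200 in restimulated A, B and C. The restimulated arrays were close together, and the change was 3.58 ± 0.30 (SE, 3 arrays per group, limma adjusted p = 0.00334), or 3.53 (adjusted p = 0.0147) without restimulated C. Socs1, an inhibitor of JAK kinases, was dim, with 36.45, 49.65 and 35.33 units in pretreated A, B and C and 114.9, 309.1 and 80.3 in restimulated A, B and C, and changed by 1.51 ± 0.33 (adjusted p = 0.0433). These were 2 of 8 members of the family, with a list median of 0.12 (0.36 without restimulated C). Of 12 MAP kinase phosphatases, with a list median of 0.21 (0.23 without restimulated C), Dusp16, Dusp2 and Dusp1 were called. Dusp16, a phosphatase of Jnk and p38, had 103.5, 274.5 and 125.2 units in pretreated A, B and C and 1135, 1025 and 1267 in restimulated A, B and C, and changed by 2.76 ± 0.24 (SE, 3 arrays per group, limma adjusted p = 0.00334). Dusp1, the early brake on p38, had 561.9, 809.9 and 641.1 units in pretreated A, B and C and 1798, 1805 and 1658 in restimulated A, B and C, and changed by 1.38 ± 0.18 (adjusted p = 0.0122). Dusp2, a nuclear Erk phosphatase, had 44.22, 66.37 and 45.52 units in pretreated A, B and C and 300.4, 111.7 and 129.2 in restimulated A, B and C, and changed by 1.42 ± 0.28 (adjusted p = 0.0323). With restimulated C left out, the changes were 1.76 (adjusted p = 0.0634) for Socs1, 2.63 (adjusted p = 0.0147) for Dusp16, 1.32 (adjusted p = 0.036) for Dusp1 and 1.52 (adjusted p = 0.0743) for Dusp2. Socs3 and Dusp16 kept their calls whichever of the 12 arrays was left out, and with 1 array left out, the call was lost for Socs1 (any other than restimulated B), Dusp2 (any other than LPS-once A, pretreated B or restimulated B) and Dusp1 (pretreated C or restimulated A), with adjusted p up to 0.158.

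Factors that degrade or silence mRNA moved in both directions, 2 higher and 2 lower of 17, with a list median of -0.11 (0.01 without restimulated C and 0.05 after quantile normalization). Zc3h12c, a Regnase-family ribonuclease, had 42.2, 207.5 and 101.4 units in pretreated A, B and C and 889.1, 1248 and 1050 in restimulated A, B and C. It changed by 3.21 ± 0.35 (SE, 3 arrays per group, limma adjusted p = 0.00804). Zc3h12a (Regnase-1), which cuts the mRNA of Il6, changed by 1.25 ± 0.19 (adjusted p = 0.0188). Their relative Zc3h12d fell, with 429.7, 364.7 and 365.2 units in pretreated A, B and C and 181.1, 142 and 89.45 in restimulated A, B and C and a change of -1.43 ± 0.24 (adjusted p = 0.0228). Pdcd4, an inhibitor of translation initiation, had 708, 270.4 and 453.7 units in pretreated A, B and C and 105.5, 128.4 and 72.42 in restimulated A, B and C. All its restimulated arrays were below all pretreated ones, with a change of -1.99 ± 0.27 (SE, 3 arrays per group, limma adjusted p = 0.013). The changes without restimulated C were 3.34 (adjusted p = 0.0225) for Zc3h12c, 1.33 (adjusted p = 0.0389) for Zc3h12a, -1.34 (adjusted p = 0.0698) for Zc3h12d and -1.85 (adjusted p = 0.0389) for Pdcd4. Leaving out 1 array ended the call of Zc3h12c (pretreated C), Zc3h12a and Pdcd4 (pretreated A or C or restimulated A) and Zc3h12d (pretreated A or C or restimulated A or C), with adjusted p up to 0.119.

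Tlr4 and Cd14, the receptor genes themselves, did not pass the test. Tlr4 had 729.2, 718.6 and 753.5 units in pretreated A, B and C and 469.9, 677.3 and 262.9 in restimulated A, B and C, with a change of -0.72 ± 0.24 (adjusted p = 0.129), and -0.37 (adjusted p = 0.217) without restimulated C. Cd14 had 4225, 8274 and 5665 units in pretreated A, B and C and 10025, 9772 and 9464 in restimulated A, B and C, with a change of 0.74 ± 0.17 (adjusted p = 0.0511). Of 20 members of the Tlr4 complex and its adaptors Irak2, a kinase of the Myd88 complex, and Ikbke, an IKK-related kinase, were called, at 1.21 ± 0.21 (adjusted p = 0.0252) and 1.04 ± 0.20 (adjusted p = 0.0308), and the list median was 0.03 (0.23 without restimulated C). Among 18 other innate sensors, with a list median of 0.15 (0.30 without restimulated C), the partners in lipopeptide sensing Tlr2 and Tlr1 were called. Tlr2 had 1275, 1492 and 2175 units in pretreated A, B and C and 4894, 3882 and 5557 in restimulated A, B and C. Its groups did not overlap, and its change was 1.55 ± 0.18 (SE, 3 arrays per group, limma adjusted p = 0.0087). Tlr1 changed by 1.37 ± 0.17 (adjusted p = 0.00931). Without restimulated C, Tlr2 and Tlr1 were called, at 1.53 (adjusted p = 0.026) and 1.44 (adjusted p = 0.0255), whereas Irak2 at 1.33 (adjusted p = 0.051) and Ikbke at 1.07 (adjusted p = 0.0797) were not. In the fit without restimulated C, the change was 0.72 (adjusted p = 0.131) for Cd14. Tlr2 kept the call whichever of the 12 arrays was left out, and the omission of 1 array ended the call of Tlr1 (pretreated A or C), Irak2 (pretreated A or C or restimulated A or C) and Ikbke (untreated B or C, LPS-once C, pretreated A or C or restimulated A or C), where the adjusted p reached 0.143.

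**Figure D3:**
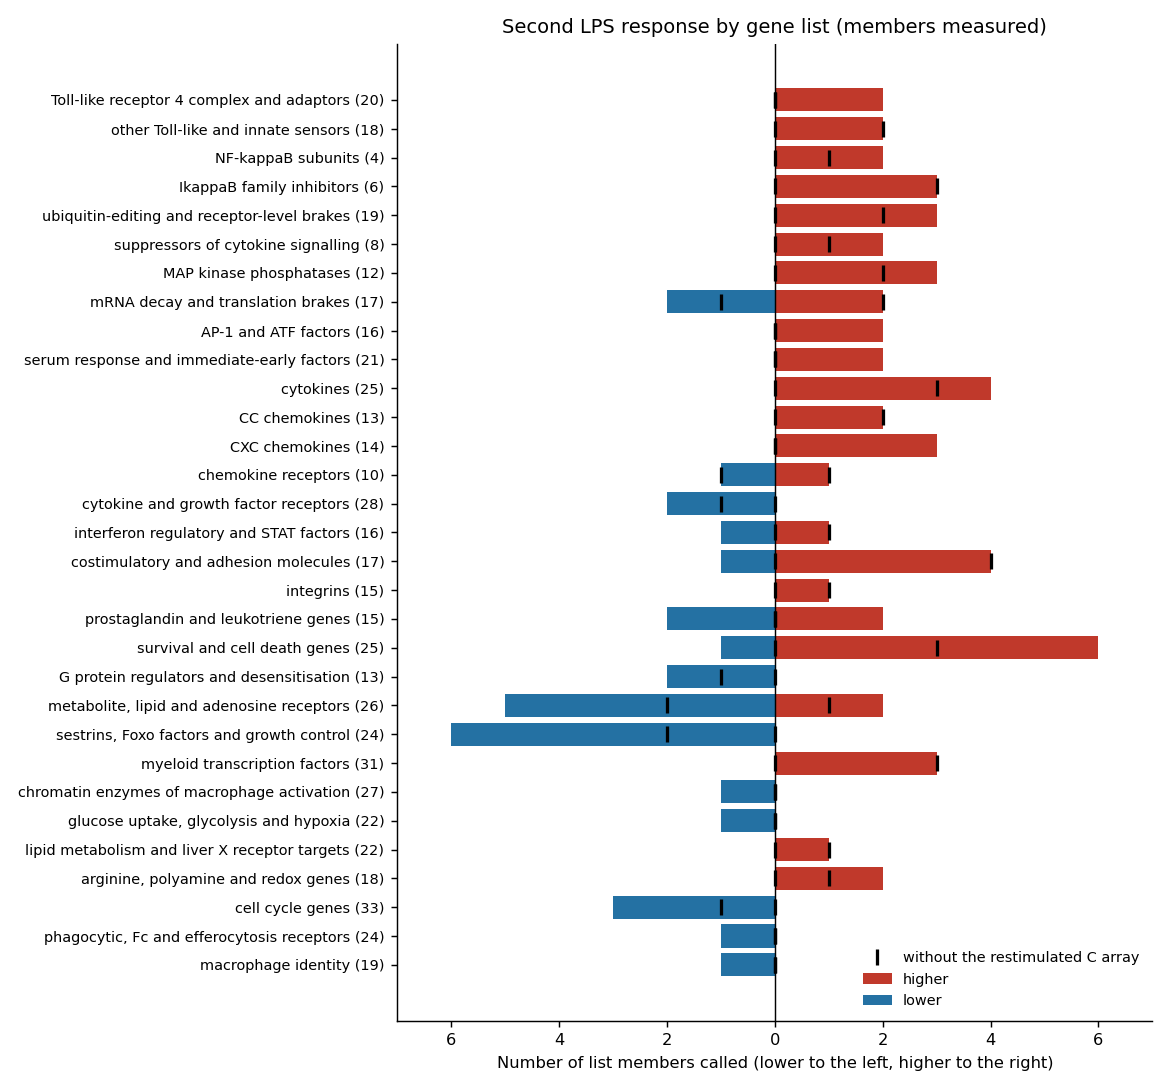
Number of members called in each gene list with at least 1 call, with lower genes to the left and higher genes to the right of 0; the number measured stands in parentheses and black ticks give the counts without the restimulated C array. The IκB family, SOCS, MAP kinase phosphatase, cytokine and CC and CXC chemokine lists have calls to the right only, and the list of sestrins, Foxo factors and growth control has 6 calls to the left, against 2 without it.

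Transcription factors of several families rose. Ets2, a factor of the ETS family, had 133.2, 460.2 and 140.9 units in pretreated A, B and C and 2988, 2549 and 2884 in restimulated A, B and C. The restimulated arrays were nearly equal and pretreated B stood above the other pretreated arrays, with a change of 3.66 ± 0.37 (SE, 3 arrays per group, limma adjusted p = 0.00593) and 3.48 (adjusted p = 0.022) without restimulated C. Other probe sets of Ets2 changed by 0.11 and 2.43. Cebpd (C/EBPδ), which acts with NF-κB at Il6, had 612.2, 997.4 and 1109 units in pretreated A, B and C and 2927, 2568 and 3473 in restimulated A, B and C, and changed by 1.74 ± 0.17 (SE, 3 arrays per group, limma adjusted p = 0.0057). With Hivep1 at 1.16 ± 0.13 (adjusted p = 0.00804) these were 3 of 31 myeloid factors, with a list median of 0.18 (0.17 without restimulated C). Of 16 AP-1 and ATF factors Maff and Batf were called, at 1.84 ± 0.34 (adjusted p = 0.0271) and 1.14 ± 0.19 (adjusted p = 0.0226). Of 21 immediate-early genes Gadd45a, a stress sensor, and Ier3 were called, at 2.03 ± 0.39 (adjusted p = 0.0308) and 1.11 ± 0.17 (adjusted p = 0.0181). The medians of the last lists were 0.27 (0.28 without restimulated C) and 0.33 (0.20 without restimulated C). The fit without restimulated C gave 1.68 (adjusted p = 0.0215) for Cebpd, 1.25 (adjusted p = 0.0181) for Hivep1, 1.73 (adjusted p = 0.0843) for Maff, 1.11 (adjusted p = 0.0659) for Batf, 1.98 (adjusted p = 0.0884) for Gadd45a and 1.06 (adjusted p = 0.0546) for Ier3. Ets2 and Cebpd kept their calls whichever of the 12 arrays was left out, and a fit with 1 array less ended the call of Hivep1 (pretreated C), Maff (untreated B, pretreated A or C or restimulated A or C), Batf and Ier3 (pretreated A or C or restimulated A or C) and Gadd45a (untreated C, LPS-once C, pretreated A, B or C or restimulated A or C), at an adjusted p of up to 0.157.

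Surface molecules for contact with T cells and the vessel wall were higher for 4 of 17, with a list median of 0.34 (0.49 without restimulated C). Cd69, an early activation antigen, had 31.91, 86.05 and 42.39 units in pretreated A, B and C and 824.8, 447.3 and 456 in restimulated A, B and C. It changed by 3.11 ± 0.37 (SE, 3 arrays per group, limma adjusted p = 0.0087). Icam1, the ligand of the integrin LFA-1, had 938.7, 1310 and 1082 units in pretreated A, B and C and 3604, 3894 and 3933 in restimulated A, B and C. The restimulated arrays were close together and far above the pretreated ones, with a change of 1.78 ± 0.15 (SE, 3 arrays per group, limma adjusted p = 0.00334). Cd40, the receptor of the T cell ligand CD154, had 158.7, 172.3 and 114.8 units in pretreated A, B and C and 1181, 427.9 and 376.5 in restimulated A, B and C, and restimulated A was well above B and C. It changed by 1.87 ± 0.30 (adjusted p = 0.0212), and Icosl, ligand of the costimulatory receptor Icos, by 1.51 ± 0.17 (adjusted p = 0.00804). Havcr2 (Tim-3), an inhibitory receptor, fell by 1.10 on the log2 scale. Itgb8, the integrin chain that with αv activates latent TGF-β, had 10.82, 45.95 and 15.63 units in pretreated A, B and C and 225.6, 615.6 and 634.7 in restimulated A, B and C. It was close to the lowest intensities on pretreated A and C, and its change was 3.63 ± 0.33 (SE, 3 arrays per group, limma adjusted p = 0.00391), 1 call among 15 integrin genes with a list median of -0.11 (-0.03 without restimulated C). Leaving out restimulated C gave 3.25 (adjusted p = 0.0255) for Cd69, 1.79 (adjusted p = 0.0141) for Icam1, 2.07 (adjusted p = 0.0372) for Cd40, 1.67 (adjusted p = 0.0141) for Icosl, 3.33 (adjusted p = 0.0144) for Itgb8 and -0.91 (adjusted p = 0.133) for Havcr2. Icam1 and Itgb8 kept their calls whichever of the 12 arrays was left out, and with 1 array left out, the call was lost for Cd69 and Icosl (pretreated C), Cd40 (pretreated A or C) and Havcr2 (any other than restimulated B), with adjusted p up to 0.187.

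Enzymes of prostaglandin metabolism moved in both directions, 2 higher and 2 lower of 15, with a list median of -0.03 (-0.01 without restimulated C and 0.08 after quantile normalization). Ptgs2 (cyclooxygenase 2) had 80.39, 435.4 and 37.51 units in pretreated A, B and C and 459.2, 2953 and 1443 in restimulated A, B and C. Letter B was the brightest in both groups, and the change was 3.26 ± 0.71 (SE, 3 arrays per group, limma adjusted p = 0.0446). Ptges, which turns its product into prostaglandin E2, had 216.9, 1116 and 425.1 units in pretreated A, B and C and 2469, 2861 and 2261 in restimulated A, B and C, and changed by 2.38 ± 0.40 (adjusted p = 0.0228). Hpgd, which breaks prostaglandin E2 down, had 830.8, 104.5 and 886.4 units in pretreated A, B and C and 169.2, 31.47 and 102.9 in restimulated A, B and C. Its groups overlapped since pretreated B lay below restimulated A, and its change was -2.15 ± 0.48 (adjusted p = 0.0464). Hpgds, the synthase of prostaglandin D2, changed by -1.18 ± 0.25 (adjusted p = 0.0392). Without restimulated C, 0 of the 4 were called, with changes of 2.67 (adjusted p = 0.128), 2.29 (adjusted p = 0.0694), -1.97 (adjusted p = 0.133) and -0.89 (adjusted p = 0.0852) in the same order. Leaving out 1 array ended the call of Ptges (pretreated C or restimulated A or C), Hpgds (any other than pretreated B, restimulated B or untreated A), Ptgs2 (any other than LPS-once B, pretreated B or untreated C) and Hpgd (any other than pretreated B), with adjusted p up to 0.224.

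Genes of survival and cell death had 6 higher members and 1 lower member of 25, with a list median of -0.09 (0.04 without restimulated C and 0.07 after quantile normalization). Cflar (c-FLIP), an inhibitor of caspase 8, had 941.8, 992.3 and 844.9 units in pretreated A, B and C and 2492, 2866 and 1965 in restimulated A, B and C. It changed by 1.37 ± 0.15 (SE, 3 arrays per group, limma adjusted p = 0.00745), and by 1.52 (adjusted p = 0.0108) without restimulated C. Traf1 and Birc3 (cIAP2), proteins of Tnf receptor complexes, changed by 2.71 ± 0.48 (adjusted p = 0.0252) and 1.17 ± 0.16 (adjusted p = 0.013). Nlrp3, the inflammasome sensor, changed by 1.79 ± 0.27 (adjusted p = 0.0188), the inflammatory caspase Casp4 by 1.36 ± 0.22 (adjusted p = 0.0216) and the death receptor Fas by 1.24 ± 0.21 (adjusted p = 0.0236). Bcl2l11 (Bim), a death-promoting member of the Bcl2 family, had 1506, 1373 and 1512 units in pretreated A, B and C and 373.7, 875 and 481.3 in restimulated A, B and C. It changed by -1.41 ± 0.26 (SE, 3 arrays per group, limma adjusted p = 0.0271) and by -1.25 (adjusted p = 0.0836) without restimulated C. Without restimulated C the changes were 2.67 (adjusted p = 0.075) for Traf1, 1.18 (adjusted p = 0.0351) for Birc3, 1.70 (adjusted p = 0.0563) for Nlrp3, 1.47 (adjusted p = 0.0446) for Casp4 and 1.24 (adjusted p = 0.0671) for Fas. The omission of 1 array ended the call of Cflar (pretreated C), Traf1, Nlrp3 and Fas (pretreated A or C or restimulated A or C), Birc3 and Casp4 (pretreated A or C or restimulated A) and Bcl2l11 (untreated C, pretreated A or C or restimulated A or C), where the adjusted p reached 0.135.

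Among the largest decreases were Rgs2, Cnr2 and Bmf. Rgs2, which shortens signals of G protein-coupled receptors, had 2360, 1138 and 2027 units in pretreated A, B and C and 284.7, 155 and 112.2 in restimulated A, B and C. Every restimulated array was below every pretreated one, with a change of -3.24 ± 0.24 (SE, 3 arrays per group, limma adjusted p = 0.00264) and -2.93 (adjusted p = 0.00495) without restimulated C. Cnr2, the cannabinoid receptor of immune cells, had 236.8, 232.6 and 289.5 units in pretreated A, B and C and 21.68, 44.76 and 16.63 in restimulated A, B and C. The pretreated arrays were close together, restimulated A and C were near the lowest intensities, and the change was -2.67 ± 0.20 (SE, 3 arrays per group, limma adjusted p = 0.00264), or -2.42 (adjusted p = 0.00495) without restimulated C. Bmf, a death-promoting protein of the Bcl2 family tied to the cytoskeleton, had 514.8, 393 and 667.4 units in pretreated A, B and C and 93.2, 86.35 and 60.82 in restimulated A, B and C. It changed by -2.48 ± 0.21 (SE, 3 arrays per group, limma adjusted p = 0.00334), and by -2.23 (adjusted p = 0.0102) without restimulated C. Rgs2, Cnr2 and Bmf kept their calls whichever of the 12 arrays was left out.

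**Figure D4:**
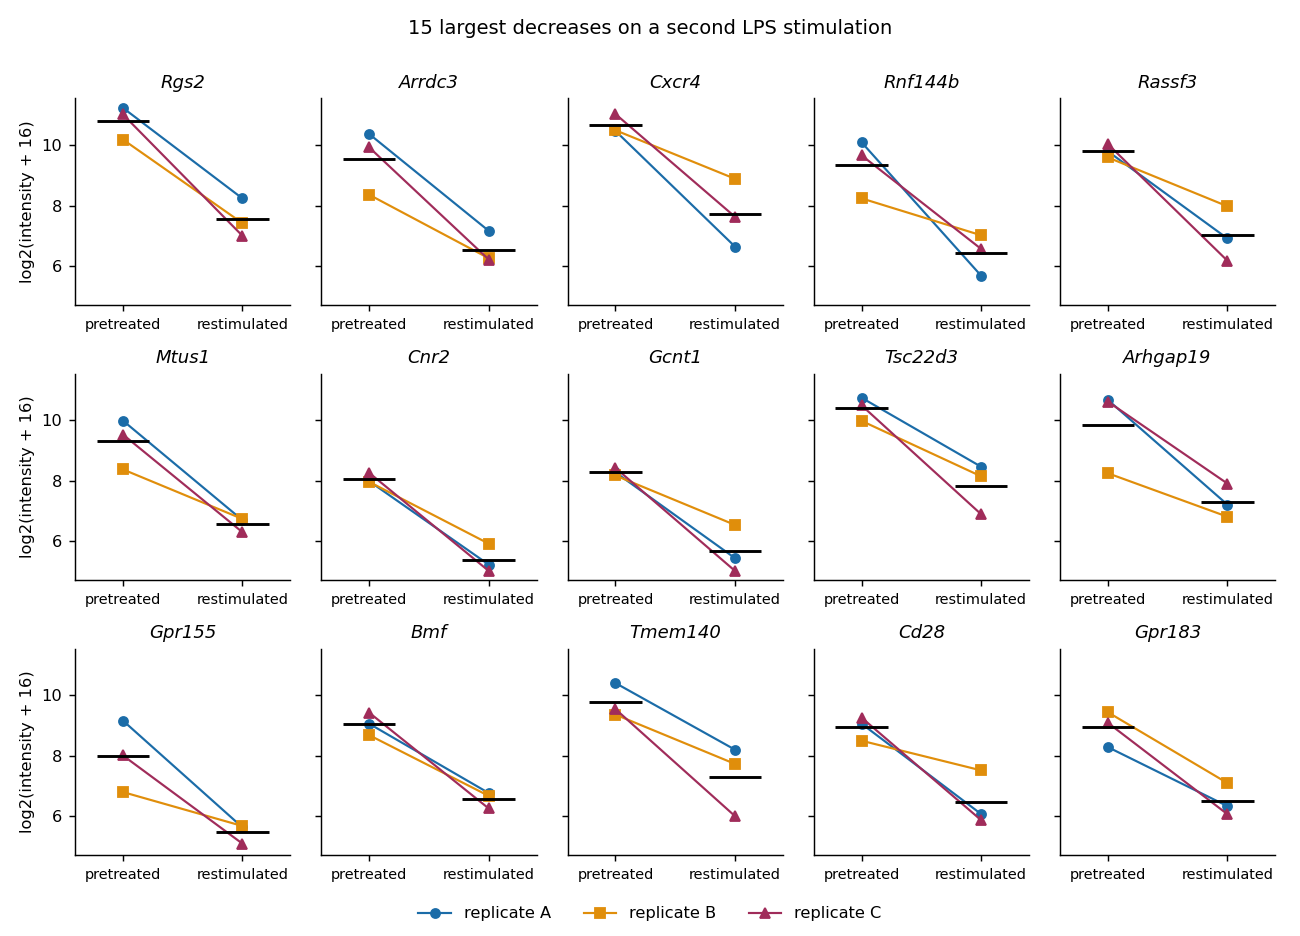
Each panel is 1 of the 15 genes with the largest decreases, with log2(intensity + 16) on the vertical axis for the pretreated and the restimulated array of each replicate letter, joined by a line; black bars are group means (n = 3). All lines fall, from a mean of 10.79 to 7.55 for Rgs2, which was a condition of the choice of these genes. The restimulated arrays lie below the pretreated arrays in every panel.

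Receptors for lipids, nucleotides and metabolites fell for 5 of 26 members and rose for 2, with a list median of 0.00 (-0.05 without restimulated C). Gpr183, the oxysterol receptor that guides immune cells in lymphoid tissue, had 295.2, 673.3 and 525.5 units in pretreated A, B and C and 64.95, 121.1 and 51.37 in restimulated A, B and C, and changed by -2.43 ± 0.34 (SE, 3 arrays per group, limma adjusted p = 0.0152). The lysophosphatidic acid receptor Lpar6 changed by -2.05 ± 0.39 (adjusted p = 0.0306), the ATP-gated channel P2rx7 by -1.63 ± 0.28 (adjusted p = 0.0236) and the nucleotide receptor P2ry6 by -1.06 ± 0.14 (adjusted p = 0.0114). Gpr84, a receptor for medium-chain fatty acids, rose, with 197.4, 1158 and 765.8 units in pretreated A, B and C and 5315, 3892 and 5798 in restimulated A, B and C. Pretreated A was the lowest array, and the change was 3.09 ± 0.55 (SE, 3 arrays per group, limma adjusted p = 0.0262). Hcar2, the receptor of niacin and ketone bodies, had 20.32, 53.3 and 23.13 units in pretreated A, B and C and 321, 151.8 and 235 in restimulated A, B and C, and changed by 2.39 ± 0.31 (adjusted p = 0.0114). Without restimulated C the change of Gpr84 was 3.02 (adjusted p = 0.0797). With restimulated C left out, the changes were -2.17 (adjusted p = 0.0425) for Gpr183, -2.06 (adjusted p = 0.0829) for Lpar6, -1.33 (adjusted p = 0.0563) for P2rx7, -0.91 (adjusted p = 0.0228) for P2ry6 and 2.35 (adjusted p = 0.0351) for Hcar2. A fit with 1 array less ended the call of Hcar2 (pretreated A or C), Gpr183 (pretreated C or restimulated A), Gpr84 (untreated B, LPS-once C, pretreated C or restimulated A or C), Lpar6 (untreated B or C, pretreated A, B or C or restimulated A or C), P2rx7 (untreated B, pretreated A or C or restimulated A or C) and P2ry6 (pretreated C or restimulated A or C), at an adjusted p of up to 0.156.

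Among chemokine receptors, Cxcr4, which holds cells in the bone marrow through Cxcl12, had 1389, 1410 and 2049 units in pretreated A, B and C and 84.39, 455.3 and 182.1 in restimulated A, B and C. Restimulated B stayed highest in its group, and the change was -2.93 ± 0.38 (SE, 3 arrays per group, limma adjusted p = 0.012), or -2.79 (adjusted p = 0.036) without restimulated C. Ccrl2, an atypical receptor that presents chemerin, rose, with 111.5, 98.46 and 102.5 units in pretreated A, B and C and 386, 446.9 and 195.7 in restimulated A, B and C and a change of 1.5 ± 0.26 (adjusted p = 0.0232). These were 1 lower and 1 higher of 10, with a list median of -0.02 (-0.04 without restimulated C). Among 28 cytokine receptors, with a list median of -0.09 (-0.05 without restimulated C and 0.01 after quantile normalization), Il6ra and Tgfbr1 were lower, at -1.74 ± 0.25 (adjusted p = 0.0153) and -1.14 ± 0.16 (adjusted p = 0.0155). Arrb1 (β-arrestin 1), which uncouples G protein-coupled receptors, was lower at -1.06 ± 0.22 (adjusted p = 0.0391) and, with Rgs2, made 2 of 13 members of its list, whose median was -0.09 (-0.03 without restimulated C and 0.06 after quantile normalization). The changes without restimulated C were 1.88 (adjusted p = 0.00495) for Ccrl2, -1.58 (adjusted p = 0.0446) for Il6ra, -0.98 (adjusted p = 0.0363) for Tgfbr1 and -0.74 (adjusted p = 0.0363) for Arrb1. With 1 array left out, the call was lost for Cxcr4 (pretreated A or C), Ccrl2 and Il6ra (pretreated A or C or restimulated A), Tgfbr1 (pretreated A or C or restimulated A or C) and Arrb1 (untreated A, B or C, LPS-once B, pretreated A or C or restimulated A or C), with adjusted p up to 0.195.

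The list of sestrins, Foxo factors and growth control had 6 lower and 0 higher members of 24, with a list median of -0.74 (-0.47 without restimulated C). At an unadjusted p under 0.05 in limma, 15 were lower and 1 was higher, where 17.5% of all genes were lower and 5.28% higher. Without restimulated C the counts were 11 and 1, against 11.1% and 6.52% of all genes. Tsc22d3 (GILZ), an anti-inflammatory gene induced by glucocorticoids and Foxo factors, had 1677, 982.8 and 1406 units in pretreated A, B and C and 335, 266 and 102.7 in restimulated A, B and C. It changed by -2.56 ± 0.40 (SE, 3 arrays per group, limma adjusted p = 0.0195), and by -2.05 (adjusted p = 0.0293) without restimulated C. Foxo3, a factor that is switched off by growth factor signalling, had 1069, 640 and 987 units in pretreated A, B and C and 334.6, 370.3 and 241.2 in restimulated A, B and C, and changed by -1.45 ± 0.28 (adjusted p = 0.0306), and Sesn1, a stress-induced inhibitor of mTORC1, had 3917, 1250 and 2824 units in pretreated A, B and C and 1487, 521.8 and 815.3 in restimulated A, B and C. The groups of Sesn1 overlapped, since pretreated B lay below restimulated A, and its change was -1.47 ± 0.24 (adjusted p = 0.0212). Rassf3 and Rassf5, adaptors that bind Ras-like proteins, changed by -2.77 ± 0.37 (adjusted p = 0.013) and -1.37 ± 0.30 (adjusted p = 0.0448), and the cell cycle inhibitor Cdkn2c by -1.15 ± 0.18 (adjusted p = 0.0192). Other probe sets changed by 0.02 and -1.51 for Rassf3 and by -2.31, -0.72 and 0.06 for Tsc22d3. Without restimulated C the list had 2 lower members, Rassf3 at -2.36 (adjusted p = 0.0259) and Tsc22d3. In the fit without restimulated C, the changes were -1.31 (adjusted p = 0.0929) for Foxo3, -1.38 (adjusted p = 0.0659) for Sesn1, -1.01 (adjusted p = 0.0937) for Rassf5 and -1.11 (adjusted p = 0.0563) for Cdkn2c. Leaving out 1 array ended the call of Tsc22d3 and Rassf3 (pretreated A or C or restimulated A), Cdkn2c and Sesn1 (pretreated A or C or restimulated A or C), Foxo3 (untreated A, B or C, LPS-once C, pretreated A or C or restimulated A or C) and Rassf5 (any other than restimulated B), with adjusted p up to 0.212.

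Other genes with large decreases belonged to no list of signalling genes. Arrdc3, an arrestin-like protein that helps to remove receptors from the surface, had 1293, 311.4 and 948.9 units in pretreated A, B and C and 127.7, 60.92 and 58.71 in restimulated A, B and C. It changed by -2.99 ± 0.42 (SE, 3 arrays per group, limma adjusted p = 0.015). Rnf144b, a ubiquitin ligase, changed by -2.89 ± 0.47 (adjusted p = 0.0207), and Mtus1, a microtubule-associated protein, by -2.71 ± 0.38 (adjusted p = 0.0149). Other probe sets of Rnf144b changed by -0.44 and 0.09, and those of Mtus1 by -2.81 and -2.00. Gcnt1, which builds branched O-glycans, had 293.3, 271.6 and 325.9 units in pretreated A, B and C and 27.68, 77.19 and 16.67 in restimulated A, B and C, with restimulated C the lowest, and changed by -2.61 ± 0.37 (adjusted p = 0.0149). Cd28, best known as a costimulatory receptor of T cells, changed by -2.44 ± 0.40 (adjusted p = 0.0218), Gpr155 by -2.51 ± 0.45 (adjusted p = 0.0257), Arhgap19 by -2.52 ± 0.46 (adjusted p = 0.0281), and Tmem140 by -2.45 ± 0.48 (adjusted p = 0.0323). The other probe set changed by -1.53 for Gcnt1, -2.43 for Cd28, -0.07 for Arhgap19 and -0.58 for Tmem140. The fit without restimulated C gave -2.89 (adjusted p = 0.0446) for Arrdc3, -2.83 (adjusted p = 0.0629) for Rnf144b, -2.58 (adjusted p = 0.0446) for Mtus1, -2.16 (adjusted p = 0.0255) for Gcnt1, -2.00 (adjusted p = 0.0492) for Cd28, -2.20 (adjusted p = 0.0798) for Gpr155, -2.55 (adjusted p = 0.0785) for Arhgap19 and -1.87 (adjusted p = 0.0701) for Tmem140. The omission of 1 array ended the call of Arrdc3, Mtus1, Gcnt1 and Cd28 (pretreated A or C or restimulated A), Rnf144b (pretreated A or C or restimulated A or C), Arhgap19 (untreated A, B or C, LPS-once C, pretreated A or C or restimulated A or C), Gpr155 (untreated B, pretreated A or C or restimulated A or C) and Tmem140 (untreated B, LPS-once C, pretreated A or C or restimulated A or C), where the adjusted p reached 0.168.

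Calls among interferon regulatory, phagocytic, identity and cell cycle genes stand here beside the 0.775% of all genes called higher and 1.48% called lower. Irf8, a lineage factor, had 2298, 2007 and 2244 units in pretreated A, B and C and 1038, 940.3 and 840.4 in restimulated A, B and C, with a change of -1.21 ± 0.23 (adjusted p = 0.0306), and Jak2 rose by 1.79 ± 0.19 (adjusted p = 0.00693), so that 1 of 16 interferon regulatory, JAK and STAT genes was lower and 1 higher, with a list median of -0.16 (-0.05 without restimulated C). Mertk, the receptor for apoptotic cells, had 2607, 750.6 and 1438 units in pretreated A, B and C and 725.4, 390.7 and 176.4 in restimulated A, B and C, and changed by -1.89 ± 0.37 (adjusted p = 0.0321). It was the only call among 24 phagocytic receptors and among 19 identity genes, whose medians were -0.16 (-0.01 without restimulated C) and -0.05 (-0.01 without restimulated C and 0.02 after quantile normalization). The licensing factors Cdt1 and Mcm7 and the centromere histone Cenpa were the lower members among 33 cell cycle genes, at -1.51 ± 0.19 (adjusted p = 0.0098), -1.12 ± 0.20 (adjusted p = 0.027) and -1.12 ± 0.24 (adjusted p = 0.0411), with a list median of -0.32 (-0.26 without restimulated C). Leaving out restimulated C gave -1.12 (adjusted p = 0.0917) for Irf8, 1.72 (adjusted p = 0.0225) for Jak2, -1.40 (adjusted p = 0.0545) for Mertk, -1.33 (adjusted p = 0.0255) for Cdt1, -1.08 (adjusted p = 0.0814) for Mcm7 and -1.18 (adjusted p = 0.0932) for Cenpa. A fit with 1 array less ended the call of Jak2 (pretreated C), Irf8 (untreated B, pretreated A, B or C or restimulated A or C), Mertk (untreated B, LPS-once A, B or C, pretreated A or C or restimulated A or C), Cdt1 (pretreated C or restimulated A), Mcm7 (untreated B or C, pretreated A or C or restimulated A or C) and Cenpa (any other than LPS-once C, pretreated B or restimulated B), at an adjusted p of up to 0.197.

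Across the metabolic lists calls went in both directions, and the chromatin enzymes had 1 lower and 0 higher calls. Of all genes tested 0.775% were called higher and 1.48% lower. Nr1h3 (LXRα), the oxysterol-activated nuclear receptor of cholesterol efflux, had 259.8, 188.2 and 299.7 units in pretreated A, B and C and 1010, 385.8 and 563.2 in restimulated A, B and C. Its groups did not overlap, and its change was 1.25 ± 0.21 (SE, 3 arrays per group, limma adjusted p = 0.0231), or 1.49 (adjusted p = 0.0225) without restimulated C. It was the only call among 22 lipid genes, with a list median of -0.10 (-0.003 without restimulated C). Of 18 genes of arginine, polyamine and redox metabolism, with a list median of 0.11 (0.39 without restimulated C), the arginine transporter Slc7a2 and Gch1, which makes the cofactor of nitric oxide synthase, rose by 2.10 ± 0.44 (adjusted p = 0.0389) and 1.88 ± 0.27 (adjusted p = 0.0152). Nos2 itself was dim, with 24.81, 29.55 and 20.18 units in pretreated A, B and C and 25.76, 35 and 29.46 in restimulated A, B and C, and changed by 0.18 ± 0.16 (adjusted p = 0.558). Pfkfb4, a regulator of glycolysis, was lower at -1.09 ± 0.19 (adjusted p = 0.0232), the only call among 22 genes of glucose use, whose median was -0.02 (0.003 without restimulated C and 0.09 after quantile normalization), and the demethylase Kdm2b at -1.41 ± 0.30 (adjusted p = 0.0402) the only one among 27 chromatin enzymes, whose median was -0.18 (-0.004 without restimulated C and 0.001 after quantile normalization). Acod1, the itaconate-producing enzyme, had 319.1, 6509 and 2317 units in pretreated A, B and C and 11179, 10942 and 10051 in restimulated A, B and C. Pretreated A was far below the other arrays, and the change of 2.64 ± 0.77 (adjusted p = 0.0918) did not pass. Without restimulated C the changes were 2.08 (adjusted p = 0.104) for Slc7a2, 1.90 (adjusted p = 0.0411) for Gch1, 0.12 (adjusted p = 0.836) for Nos2, -0.95 (adjusted p = 0.0666) for Pfkfb4, -0.96 (adjusted p = 0.027) for Kdm2b and 2.71 (adjusted p = 0.196) for Acod1. With 1 array left out, the call was lost for Gch1 (pretreated C or restimulated A), Nr1h3 (pretreated A or C or restimulated A), Slc7a2 (any other than LPS-once A, LPS-once B or pretreated B), Pfkfb4 (pretreated A or C or restimulated A or C) and Kdm2b (any other than pretreated B or restimulated B), with adjusted p up to 0.202.

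Other lists had 0 calls. Of 38 interferon-induced genes 0 were higher and 0 lower at an unadjusted p under 0.05 in limma, a threshold that 5.28% of all genes passed upward and 17.5% downward. Without restimulated C the counts were 2 and 0, against 6.52% and 11.1% of all genes. The median of the interferon-induced list was -0.13 (0.15 without restimulated C and 0.05 after quantile normalization). Of 23 antimicrobial and acute phase genes 2 were higher and 0 lower by that p, with a median of -0.03 (0.00 without restimulated C and 0.02 after quantile normalization). The 10 genes of MHC class II had 0 and 3 such members and a median of -0.09 (-0.13 without restimulated C), and the 12 of MHC class I 0 and 0 and a median of -0.17 (-0.07 without restimulated C). Among 28 genes of respiration and the citric acid cycle 0 were higher and 8 lower by unadjusted p (0 and 6 without restimulated C), with a median of -0.17 (-0.05 without restimulated C). Among 20 lysosomal genes the counts were 0 and 11 (0 and 8 without restimulated C), with a median of -0.25 (-0.15 without restimulated C). The 22 proteases had 3 and 1 and a median of -0.11 (-0.05 without restimulated C), and the 18 ribosomal and housekeeping genes 0 and 1 and a median of -0.10 (-0.05 without restimulated C). Of the interferon-induced genes 35 had been higher in the first response. Irf7, the interferon regulatory factor of this group, had 5135, 4611 and 4676 units in pretreated A, B and C and 5148, 4458 and 3179 in restimulated A, B and C. Its groups overlapped at a bright level, with a change of -0.20 ± 0.36 (adjusted p = 0.787). Lcn2, which binds bacterial siderophores, was likewise bright throughout, with 4505, 10888 and 9319 units in pretreated A, B and C and 4226, 11346 and 8238 in restimulated A, B and C and a change of -0.07 ± 0.41 (adjusted p = 0.942), and the scavenger receptor Marco changed by -0.09 ± 0.44 (adjusted p = 0.927). With restimulated C left out, the changes were -0.12 (adjusted p = 0.937) for Irf7, -0.22 (adjusted p = 0.891) for Lcn2 and 0.34 (adjusted p = 0.778) for Marco.

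The second response was set beside the first response, LPS once against untreated, which used other arrays and called 761 genes higher (4.18%) and 1683 lower (9.25%). Of the 141 genes higher in the second response, 132 (93.6%) were also higher in the first and 0 were lower, and these 132 were 17.3% of the genes higher in the first. Of the 270 lower genes, 256 (94.8%) were also lower in the first and 0 were higher, which was 15.2% of the genes lower in the first. The median change of the 141 genes was 1.67 in the second and 2.59 in the first response, and that of the 270 genes was -1.34 and -2.20. Both sets were chosen by the second response.

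**Figure D5:**
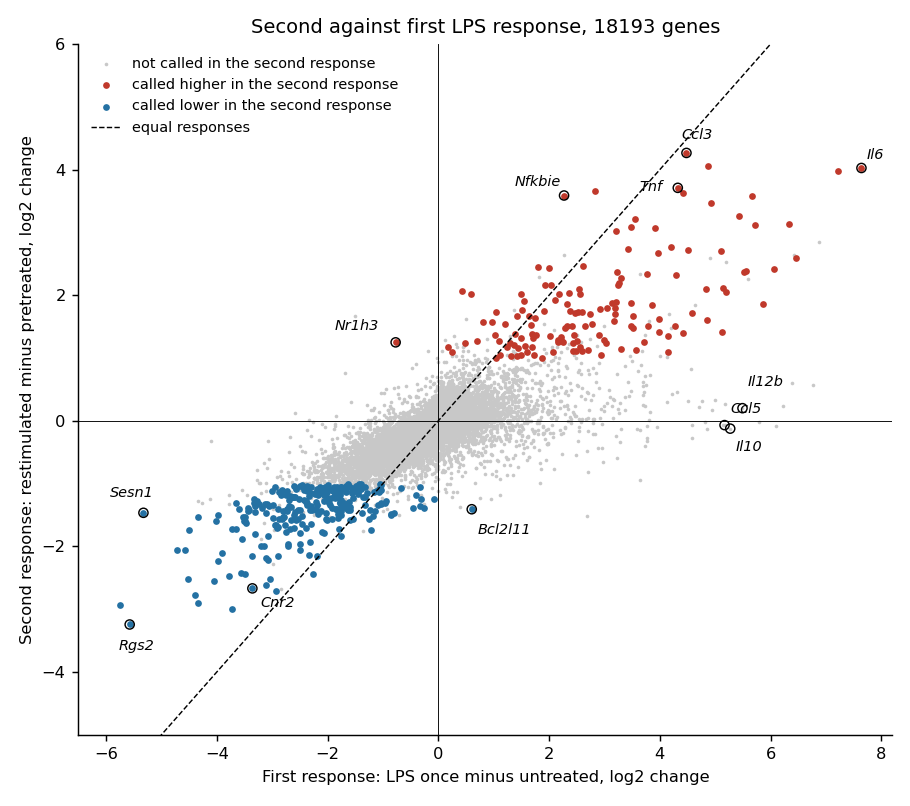
Each point is 1 of the 18193 genes, with the log2 change of the first LPS response on the horizontal and that of the second on the vertical axis; red and blue points were called higher and lower in the second response, circled genes are named in the text, and the dashed line marks equal responses. Ccl3 lies near the line at 4.48 and 4.27, whereas Il10 lies near 0 on the vertical axis at a first response of 5.27.

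The difference between the 2 responses was tested in the same limma fit and called positive for 260 genes (1.43%) and negative for 338 (1.86%). Of the 141 genes higher in the second response, 45 had a difference called below 0, a smaller rise than in the first, and 2 one called above 0. Ccl3 and Tnf, whose second responses were 4.27 ± 0.25 (adjusted p = 0.00152) and 3.71 ± 0.25 (adjusted p = 0.00204), had first responses of 4.48 and 4.32. Their differences were -0.22 ± 0.36 (adjusted p = 0.82) and -0.61 ± 0.36 (adjusted p = 0.415) and did not pass. Nfkbie had a first response of 2.27 and a difference of 1.32 ± 0.56 (adjusted p = 0.243), also not called. Log2 levels in untreated, LPS-once, pretreated and restimulated cells were 9.02, 13.5, 7.92 and 12.18 for Ccl3. In the same order they were 8.46, 12.78, 7.62 and 11.33 for Tnf and 9.32, 11.59, 7.17 and 10.75 for Nfkbie. For each of these genes the pretreated level lay below the untreated level, and the restimulated level below the LPS-once level. These differences in level are given without a test. Il6 had a first response of 7.64 and a difference of -3.61 ± 0.67 (adjusted p = 0.026). Its log2 levels were 4.82 ± 0.0806, 12.46 ± 0.331, 5.46 ± 0.933 and 9.48 ± 1.32 in untreated, LPS-once, pretreated and restimulated cells (SD, n = 3). Those of Cd40 were 7.17 ± 0.331, 13.03 ± 0.0709, 7.35 ± 0.277 and 9.21 ± 0.882 in the same order, with a difference of -3.99 ± 0.43 (adjusted p = 0.00411). The difference stayed called for Cd40 with any 1 array left out and for Il6 in 6 of 12 such fits, with adjusted p up to 0.0769.

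Of the 270 genes lower in the second response, 54 had a difference called above 0, so that the fall was smaller than in the first, and 1 had one called below 0. Sesn1 had log2 levels of 11.62 ± 0.265, 6.30 ± 0.233, 11.24 ± 0.842 and 9.77 ± 0.744 in untreated, LPS-once, pretreated and restimulated cells (SD, n = 3), and its difference was 3.86 ± 0.34 (adjusted p = 0.00178). Rgs2 had levels of 11.09 ± 0.101, 5.51 ± 0.371, 10.79 ± 0.55 and 7.55 ± 0.626 in that order and a difference of 2.33 ± 0.34 (adjusted p = 0.0124). Cnr2, with levels of 8.28 ± 0.143, 4.92 ± 0.0919, 8.06 ± 0.165 and 5.40 ± 0.47, had a difference of 0.69 ± 0.29 (adjusted p = 0.237), which was not called.

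Nr1h3 and Bcl2l11 were called in the second response and not in the first. Nr1h3 had log2 levels of 8.48 ± 0.591, 7.71 ± 0.662, 8.03 ± 0.322 and 9.28 ± 0.682 in untreated, LPS-once, pretreated and restimulated cells (SD, n = 3). Its first response was -0.77 and the difference was 2.02 ± 0.30 (adjusted p = 0.0126). Bcl2l11 had levels of 10.83 ± 0.17, 11.43 ± 0.566, 10.53 ± 0.0776 and 9.12 ± 0.613 in the same order, a first response of 0.60 and a difference of -2.01 ± 0.36 (adjusted p = 0.0236). The difference of Bcl2l11 was called in 5 of 12 fits without 1 array (adjusted p up to 0.0723), and that of Nr1h3 in all 12. The other 8 higher genes not called in the first response were Gpr31b, Spred2, Cry1, Slx4ip, Pik3cg, Kif3c, Ppm1n and Wnt6, which are named after their values were seen. Values, also without single arrays, are given for Spred2 and Gpr31b only. Spred2, an inhibitor of Ras and Erk signalling, changed by 2.02 ± 0.45 (adjusted p = 0.0453) in the second and by 0.58 in the first response, and Gpr31b, a G protein-coupled receptor, by 2.07 ± 0.37 (adjusted p = 0.0256) and 0.42. The changes without restimulated C were 2.21 (adjusted p = 0.0895) for Spred2 and 2.22 (adjusted p = 0.0582) for Gpr31b. Leaving out 1 array ended the call of Spred2 (any other than pretreated B or restimulated B) and Gpr31b (pretreated A or C or restimulated A or C), with adjusted p up to 0.217.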

How the data were processed

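RNA of 12 macrophage cultures was measured on 12 Affymetrix arrays, 3 per group. The deposited values are linear intensities of probe sets, a scale read from their range. The program, background correction and scaling behind them are not named in the sources used here. RNA was isolated with TriFast, per the labels' protocols. Of 45101 probe sets, 34945 had 1 gene symbol in the platform annotation, 932 several and 9160 none named here, and 64 were controls. For 34741 of them the RefSeq table of GRCm38.p6 gave the current symbol by Entrez identifier. Each gene was represented by its brightest probe set on average. In a fit of all 34945 probe sets, no other probe set of a called gene was called in the opposite direction, and of the 46 named called genes with more than 1 probe set, 22 had 2 or more called the same way. Each change given holds for the probe set used, and others of the same gene could be flat, as for Bmf.

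Intensities were transformed as log2(value + 16) without further normalization and fitted with limma 3.58.1 in R 4.3.3 over all 12 arrays, with the 4 group means and the replicate letter as a block (6 residual and 1.94 prior degrees of freedom). The block follows a check of how arrays deviated from the mean of their group. Deviations of the 18 same-letter pairs had r from 0.25 to 0.656, and those of the 36 other pairs had r from -0.482 to 0.0134. Without the replicate block the second response had 121 higher and 234 lower genes. The fit was tested on simulated data. The simulation gave a gene the same spread on every array and held no dim array, so it cannot speak to restimulated C. The number of arrays limits the precision. No scan dates or slides were used. The genes named are the 15 strongest increases and 15 strongest decreases, called and with 3 within-letter differences of the same sign, up to 4 called members of each of 46 gene lists or, with fewer than 2 called, its 2 brightest members, the 5 most positive and the 5 most negative differences between the responses among called genes, and genes named in any case. The lists held 870 genes, of which 793 were measured, and the text does not report every gene the rule takes. Other called list members were named after their values were seen. The comparison, the lists and the named genes were chosen with earlier results of these data known. Promoter and microRNA sequences came from RefSeq tables of GRCm38.p6, matched by symbol.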

Additional observations from a re-analysis of the deposited data

Results flagged for a closer look

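These are some of the named genes that differed between the second and the first response by a test of the difference itself in limma. The values are second minus first log2 change. Others with a called difference are not listed, among them Hcar2 (-3.17), Ptges (-3.14) and Ccrl2 (-2.77). The rise on the second LPS was smaller than on the first for Cd40 (-3.99), Cxcl10 (-3.86), Dusp2 (-3.71), Tnfsf9 (-3.64), Il6 (-3.61), Cd69 (-2.61), Socs3 (-2.08) and Ccl4 (-1.46). The fall was smaller for Sesn1 (3.86), Cxcr4 (2.83), Cytip (2.81), Susd3 (2.76), Tmem86a (2.66) and Rgs2 (2.33). With any 1 of the 12 arrays left out, the difference stayed called for Cd40, Dusp2, Tnfsf9, Sesn1, Susd3, Tmem86a and Rgs2. It was called in 8 of 12 such fits for Ccl4 (lost without untreated A or B, LPS-once C or restimulated B), in 7 for Cxcl10 (lost without any untreated array, LPS-once C or restimulated B), and in 7 for Cytip (lost without untreated A or B, LPS-once C, pretreated B or restimulated B). The count was 6 for Il6 (lost without untreated B or C, LPS-once A or C, or pretreated A or B) and 5 for Cd69 (lost without any untreated array, LPS-once A or C, pretreated C or restimulated B). It was 3 for Cxcr4 (called only without a restimulated array) and 3 for Socs3 (called only without pretreated A or B or restimulated C), with adjusted p up to 0.106 for Socs3. Cytip, an intracellular scaffold of integrin adhesion, had log2 levels of 11.08 ± 0.47, 6.74 ± 0.259, 7.95 ± 0.566 and 6.42 ± 0.619 in untreated, LPS-once, pretreated and restimulated cells (SD, n = 3). Those of Susd3 were 10.36 ± 0.106, 5.86 ± 0.162, 9.97 ± 0.32 and 8.24 ± 0.565 and those of Tmem86a were 11.55 ± 0.28, 6.83 ± 0.355, 11.47 ± 0.62 and 9.41 ± 0.161 in the same order. In the second response Cytip changed by -1.53 ± 0.34 (adjusted p = 0.0483), Susd3 by -1.73 ± 0.21 (adjusted p = 0.00982) and Tmem86a by -2.05 ± 0.24 (adjusted p = 0.00879). Leaving out restimulated C gave -1.30 (adjusted p = 0.141) for Cytip, -1.45 (adjusted p = 0.0147) for Susd3 and -1.83 (adjusted p = 0.0255) for Tmem86a. With 1 array left out, the call was lost for Susd3 (pretreated A or C), Tmem86a (pretreated C or restimulated A) and Cytip (any other than restimulated B), with adjusted p up to 0.171.

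Probe sets outside the comparison also changed. Of 932 probe sets with several symbols 1 was higher, a probe set shared by genes of the Bcl2a1 family of survival proteins, with a log2 change of 2.55, and 4 were lower. Of 9160 probe sets with no symbol 16 were higher and 44 were lower.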

How the results depend on the processing

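No gene called in the second response reversed its direction under the alternatives run. Of the 46 list medians, none of them called, 4 changed sign without restimulated C and 11 after quantile normalization. With 1 array or replicate C left out, the higher genes of the second response ranged from 0 to 171, the lower genes from 0 to 554, the positive differences between the responses from 79 to 586 and the negative ones from 88 to 337. The 0 and 0 came without all of replicate C, where 812 higher and 1427 lower genes had an unadjusted p under 0.05 in limma. In a fit of the 6 arrays of the comparison alone 1 gene was higher and 0 were lower, with the replicate block (Cxcl1, with 541 and 2338 genes at an unadjusted p under 0.05) and without it (Ccl4, with 518 and 2068). Without the replicate block in the 12-array fit, 121 and 234 genes were called in the second response, and 223 and 262 in the difference. Array weights, which gave restimulated C 0.112 and the others 0.43 to 2.79, called 218 higher genes and 631 positive differences. Lower genes numbered 406 with a pseudocount of 1, 160 with 64, 541 at 1.5-fold and 72 after quantile normalization without restimulated C. Positive differences numbered 398 after quantile normalization, 403 when restimulated C was left out as well, 140 with a pseudocount of 64, 632 after rescaling of restimulated C and 399 at 1.5-fold. The last 2 uses of restimulated C, its rescaling and its removal before quantile normalization, were chosen after seeing the data. The cause of these shifts was not tested, apart from fewer arrays in the fits that left some out.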

Other observations

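Called genes outside the lists are described here, and they were chosen after their values were seen. Rasgrp1, an activator of Ras that responds to diacylglycerol, had 103.1, 150.6 and 80.13 units in pretreated A, B and C and 672.8, 892.8 and 769.4 in restimulated A, B and C. Its groups did not overlap, and its change was 2.67 ± 0.18 (SE, 3 arrays per group, limma adjusted p = 0.00204) after a first response of 3.97. Malt1, the paracaspase that links receptors to NF-κB, had 129.6, 179.6 and 191 units in pretreated A, B and C and 581.8, 1395 and 845.9 in restimulated A, B and C, and changed by 2.32 ± 0.20 (adjusted p = 0.00334) after 4.29. Samsn1, an adaptor with an SH3 domain, changed by 2.37 ± 0.25 (adjusted p = 0.00745) after 3.23. The Wnt receptor Fzd1 had 47.34, 79.4 and 61.5 units in pretreated A, B and C and 378.1, 530.5 and 628.2 in restimulated A, B and C, and changed by 2.74 ± 0.28 (adjusted p = 0.00617) after 3.43. Calcrl, a receptor of calcitonin gene-related peptide and adrenomedullin, changed by 1.88 ± 0.16 (adjusted p = 0.00334), and Pde4b, which degrades cyclic AMP, by 1.89 ± 0.22 (adjusted p = 0.0087). Jag1, a ligand of Notch receptors, changed by 2.45 ± 0.44 (adjusted p = 0.0269), with 84.37, 468.7 and 148.8 units in pretreated A, B and C and 703.1, 1347 and 1304 in restimulated A, B and C. Ch25h, which makes 25-hydroxycholesterol, changed by 2.12 ± 0.30 (adjusted p = 0.0153) after 5.13. In the fit without restimulated C, the changes were 2.65 (adjusted p = 0.0102) for Rasgrp1, 2.40 (adjusted p = 0.0141) for Malt1, 2.26 (adjusted p = 0.0234) for Samsn1, 2.42 (adjusted p = 0.0141) for Fzd1, 1.90 (adjusted p = 0.0141) for Calcrl, 1.85 (adjusted p = 0.0281) for Pde4b, 2.36 (adjusted p = 0.0816) for Jag1 and 2.35 (adjusted p = 0.0255) for Ch25h. Rasgrp1, Malt1, Samsn1, Fzd1 and Calcrl kept their calls whichever of the 12 arrays was left out, and the omission of 1 array ended the call of Pde4b (restimulated A), Jag1 (untreated C, pretreated A or C or restimulated A or C) and Ch25h (pretreated A or C or restimulated A), where the adjusted p reached 0.146.

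Among decreases outside the lists, Abcd2, a peroxisomal transporter of very long-chain fatty acids, had 218.4, 129.3 and 144.6 units in pretreated A, B and C and 22.15, 36 and 21.71 in restimulated A, B and C. Its groups did not overlap, and its change was -2.06 ± 0.18 (SE, 3 arrays per group, limma adjusted p = 0.00334) after a first response of -2.49. Dbp, a factor of the circadian clock, had 693.6, 192.9 and 600.2 units in pretreated A, B and C and 111.1, 83.45 and 65.54 in restimulated A, B and C, and changed by -2.16 ± 0.30 (adjusted p = 0.0152) after -3.36. Nfatc1, a calcineurin-dependent factor of osteoclast formation, changed by -1.78 ± 0.27 (adjusted p = 0.018). The fit without restimulated C gave -2.04 (adjusted p = 0.0147) for Abcd2, -1.97 (adjusted p = 0.0442) for Dbp and -1.51 (adjusted p = 0.0385) for Nfatc1. Abcd2 kept the call whichever of the 12 arrays was left out, and a fit with 1 array less ended the call of Nfatc1 and Dbp (pretreated A or C or restimulated A), at an adjusted p of up to 0.101.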
